A study of Mus musculus with 16 samples.

Results

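The genes described here are 37 genes of the antibody-producing lineage, read in whole mouse mammary tumours. They were taken by name from 47311 genes of the deposited transcript tables: 19 genes of B cells, 8 genes of plasma cells and 10 constant region genes of the immunoglobulin heavy and light chains. All 16 tumours grew from E0771-luciferase cells, which descend from a mammary cancer of C57BL/6 mice and carry a luciferase reporter. In every animal 250000 cells in 25% matrigel were placed in mammary gland 4 of a female C57BL/6J mouse fed from 8 to 26 weeks of age on chow in which fat gave 60% of the calories. From 3 days after the cells until sacrifice at day 21, 8 mice received 200 ug of an anti-PD-1 antibody every 3 days and 8 mice received the same amount of an IgG2a isotype control. PD-1 is an inhibitory receptor of activated lymphocytes, and the comparison asks what its blockade changes in the tumour. Both groups were obese and bore tumours of 1 cell line, and no lean or untreated tumour is part of the comparison. Replicate numbers here follow the order of the samples and only name a tumour.

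B cells carry a membrane form of their antibody as antigen receptor, with the signalling chains Cd79a and Cd79b beside it. When a B cell becomes a plasma cell it lowers Pax5, raises Irf4, Prdm1 and Xbp1, makes the secreted form of the heavy chain, and enlarges its secretory machinery. Ighm and Ighd are the constant genes used before class switching. Ighg1, Ighg2b, Ighg2c, Ighg3 and Igha are used after it, Igkc encodes the kappa light chain, and Iglc1 and Iglc2 encode lambda light chains. In bulk tissue, a lower number of cells of 1 type and a lower RNA content per cell cannot be told apart.

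Because the deposited tables list transcripts, the results below can use the 2 forms of Ighm, which differ at the end of the coding sequence after 1305 shared bases. The secreted form, Ighm-201, reads on into a tail of 62 bases at chr12:113420867-113420928, on the minus strand of GRCm38. The membrane form, Ighm-202, is spliced to a membrane segment of 125 bases at chr12:113418953-113419068 and chr12:113418826-113418834. The secreted form of Igha ends in a tail of the same length, at chr12:113258768-113258829 on the same strand, in which 43 of 62 bases (69.4%) match that of Ighm. The 3 tails were read from the GENCODE M21 transcripts and are shown because they set apart the chain that is released from the chain that stays in the membrane. Capitals mark the stop codon and, in the secreted tails, the cysteine codon through which IgM and IgA are known to bind the J chain.
Ighm-201 secreted tail: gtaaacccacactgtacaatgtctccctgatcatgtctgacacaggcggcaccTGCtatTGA
Ighm-202 membrane tail: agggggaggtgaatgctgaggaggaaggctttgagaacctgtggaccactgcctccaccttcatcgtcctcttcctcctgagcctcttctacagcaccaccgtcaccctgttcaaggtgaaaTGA
Igha-201 secreted tail: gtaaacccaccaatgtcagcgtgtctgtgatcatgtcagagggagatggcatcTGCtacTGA

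The tumours held 59036535 to 82591064 estimated reads each. IgG2a replicates 3 and 7 stood apart from the other 14 tumours in markers of other cell types. In IgG2a replicate 7 the summed TPM (a level scaled to transcript length and library size) was 13271 for 6 adipocyte genes (other 14 tumours 63.8 to 264), 51276 for 4 erythroid genes (57.8 to 456) and 2421 for 4 macrophage genes (340 to 1106), with 88.4 for 3 cell cycle genes (212 to 369). Of these 3, Top2a and Ccnb1 were the lowest of the 16 tumours there, while Mki67, at 11.7 TPM, was within the range of the others (5.35 to 16.7). The same tumour had 219 TPM for 4 tumour epithelium genes (36.1 to 74.3) and 339 TPM for 4 endothelial genes (16.5 to 61.0). In IgG2a replicate 3 the 5 skeletal muscle genes summed to 27828 TPM (5.19 to 174) and the erythroid genes to 1511 TPM. The 7 lymph node genes with a value summed to 34.3 TPM in replicate 3 and 22.9 TPM in replicate 7 (8.43 to 23.4), Ccl21a being at 20.1 and 10.2 TPM against at most 2.23 TPM elsewhere, while Glycam1 was at 0.130 and 0.377 TPM, within the range of the others. The 6 T cell genes summed to 35.2 and 13.1 TPM (9.99 to 67.7). Anti-PD-1 replicate 6 had 38993 transcripts detected against at least 47997 in each other tumour. The part of these tissues in the results below was not tested beyond leaving tumours out, and fold changes that rest on IgG2a replicates 3 and 7 are given with and without them.

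Most members were scarce. Of the 37 genes, 24 had a median level over the 16 tumours under 1 TPM and 4 had a median over 10 TPM, and 21 had reads in every tumour. The 4 abundant members were Sdc1 (median 181 TPM), which encodes syndecan-1, a proteoglycan of plasma cells and of epithelium, Cd72 (98.7 TPM), an inhibitory coreceptor, Fkbp11 (79.95 TPM), an isomerase of the secretory pathway, and Cd37 (26.01 TPM), a tetraspanin of leukocytes. Cd37 was highest in IgG2a replicate 7, at 77.0 TPM, where Ighm, Igkc and Jchain were also highest. Sdc1 and Fkbp11 were lowest in that tumour, at 79.7 and 25.0 TPM, and Cd72 was lowest in IgG2a replicate 3, at 55.4 TPM.

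**Figure D1:**
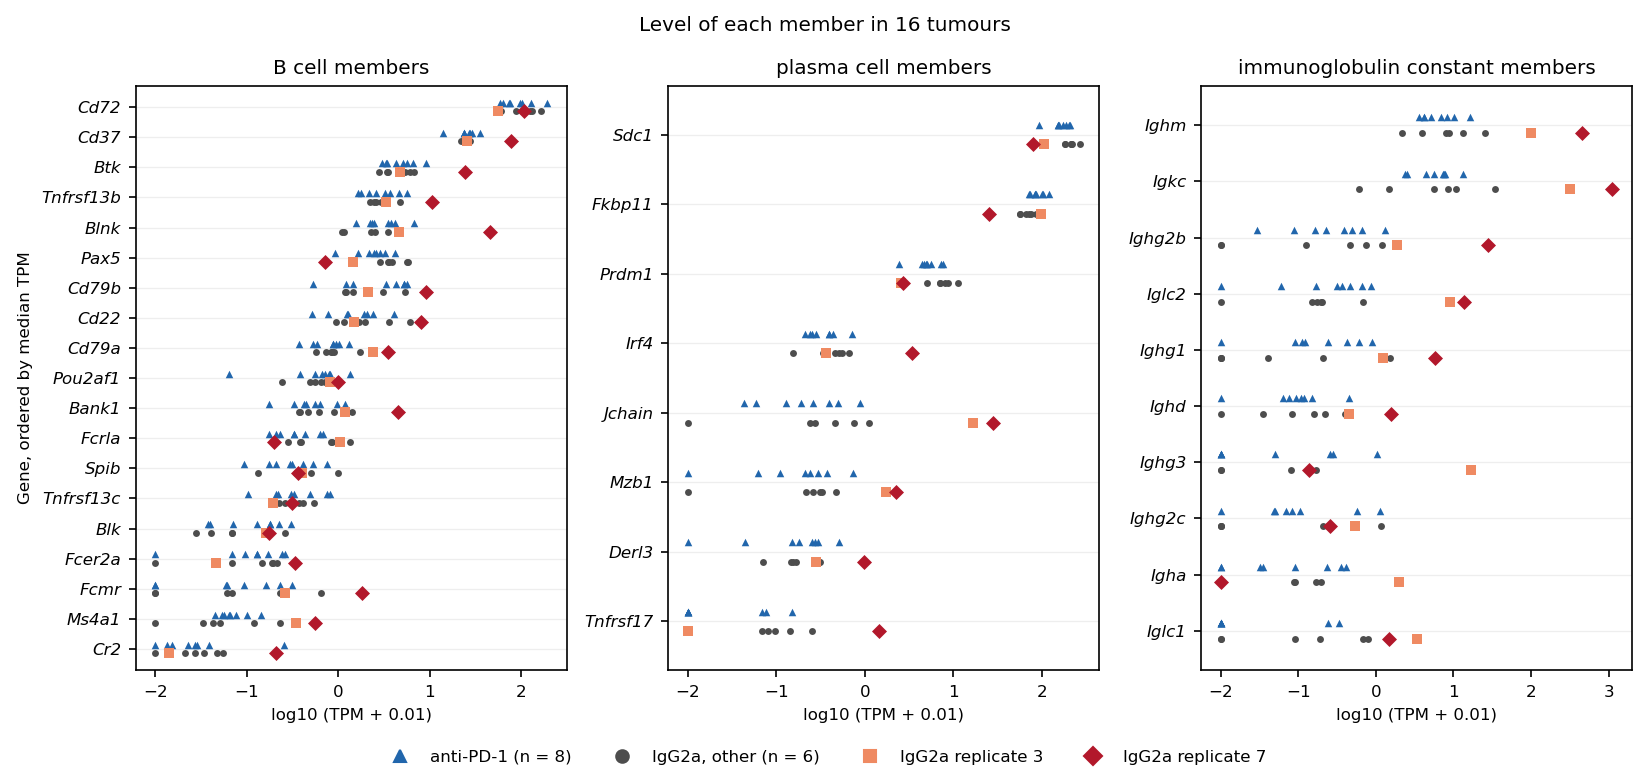
Level of each of the 37 genes in each of 16 tumours, as log10 of TPM with 0.01 added, in rows ordered by median within the B cell, plasma cell and immunoglobulin constant panels; each point is 1 tumour. IgG2a replicates 7 (diamond) and 3 (square) lie far to the right of the others for Igkc, Ighm and Jchain, while Sdc1, Fkbp11 and Pax5 have IgG2a replicate 7 at the left end.

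The genes of the B cell antigen receptor were present at low levels in all tumours. Cd79a, its alpha signalling chain, ranged from 0.363 to 1.29 TPM under anti-PD-1 (median 0.874) and from 0.559 to 3.48 TPM under IgG2a (median 0.864). The group medians were close, and the highest values were 3.48 and 2.40 TPM in IgG2a replicates 7 and 3. Cd79b, the beta chain, ranged from 0.522 to 5.58 TPM under anti-PD-1 (median 3.78) and from 1.19 to 9.04 TPM under IgG2a (median 2.15), again highest in IgG2a replicate 7 but at 2.13 TPM in replicate 3, inside the range of the others. Ms4a1, which encodes CD20, had a median of 0.0545 TPM under anti-PD-1 and 0.0754 TPM under IgG2a. It was listed at 0 in IgG2a replicate 6 and was highest, at 0.546 and 0.332 TPM, in IgG2a replicates 7 and 3.

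The other surface receptors of B cells differed in which tumour was high. Cd22, an inhibitory lectin, ranged from 0.508 to 4.04 TPM under anti-PD-1 (median 1.57) and from 0.933 to 8.09 TPM under IgG2a (median 1.82), with IgG2a replicates 7 and 8 (8.09 and 6.09 TPM) at the top. Fcer2a, the low-affinity IgE receptor CD23, stayed at or under 0.254 TPM under anti-PD-1 (median 0.120) and at or under 0.329 TPM under IgG2a (median 0.157). Cr2, the complement receptor of mature B cells and follicular dendritic cells, had medians of 0.0148 and 0.0206 TPM, with 0.247 TPM in anti-PD-1 replicate 1 and 0.196 TPM in IgG2a replicate 7. Both genes stayed under 0.33 TPM in every tumour. Fcmr, the receptor for IgM, reached 1.79 TPM in IgG2a replicate 7 and at most 0.636 TPM in every other tumour. Of the receptors for the survival factors BAFF and APRIL, Tnfrsf13c ranged from 0.0924 to 0.796 TPM under anti-PD-1 (median 0.307) and from 0.184 to 0.529 TPM under IgG2a (median 0.302), and Tnfrsf13b was at 10.6 TPM in IgG2a replicate 7 against 1.61 to 5.56 TPM in the other 14 tumours.

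Of the signalling proteins below the B cell receptor, Blnk, Btk and Bank1 were highest in IgG2a replicate 7. Blnk, the adaptor below Syk, stood at 45.0 TPM there against 4.60 TPM in IgG2a replicate 3 and 1.10 to 6.64 TPM in the other 14 tumours. Its median was 2.97 TPM under anti-PD-1 and 3.02 TPM under IgG2a. Btk, a kinase also used by myeloid cells, stood at 24.2 TPM there against 2.81 to 9.0 TPM in the other 14. Bank1, a scaffold of B cells, stood at 4.52 TPM against 0.167 to 1.42 TPM, with medians of 0.493 TPM under anti-PD-1 and 0.750 TPM under IgG2a. IgG2a replicate 7 was the tumour with the macrophage marker sum of 2421 TPM, and the part of those cells in Blnk and Btk was not tested. Blk, a Src-family kinase of B cells, did not follow it: it was highest in anti-PD-1 replicate 5 (0.295 TPM) and at 0.167 TPM in IgG2a replicate 7.

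Of the transcription factors, Pax5, which keeps B cell identity, ranged from 0.902 to 4.11 TPM under anti-PD-1 (median 2.53) and from 0.707 to 5.79 TPM under IgG2a (median 3.56), and it was lowest in IgG2a replicate 7 and also low in replicate 3 (1.43 TPM), with anti-PD-1 replicate 6 (0.902 TPM) between them. Pax5 was thus lowest in the tumour where Cd79a, a gene it is known to activate, was highest. Pou2af1, the octamer coactivator, ranged from 0.0547 to 1.33 TPM under anti-PD-1 (median 0.679) and from 0.232 to 0.992 TPM under IgG2a (median 0.674). Spib, an Ets factor of B cells and plasmacytoid dendritic cells, was highest in IgG2a replicate 1 (0.994 TPM). Fcrla, an intracellular Fc receptor-like protein, was highest in IgG2a replicate 4 (1.34 TPM), and at 0.190 TPM it was second lowest in IgG2a replicate 7.

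Plasma cell members fell into 2 kinds by their levels. Jchain, which joins secreted IgM and IgA into polymers, ranged from 0.0329 to 0.870 TPM under anti-PD-1 (median 0.215) and from 0 to 28.4 TPM under IgG2a (median 0.595). IgG2a replicates 7 and 3 were at 28.4 and 16.7 TPM, 111 and 64.9 times the median of the other 14 tumours, none of which passed 1.11 TPM. Mzb1, a chaperone of antibody assembly, ranged from 0 to 0.727 TPM under anti-PD-1 (median 0.216) and reached 2.22 and 1.75 TPM in the same 2 tumours (IgG2a median 0.308). Tnfrsf17, the plasma cell receptor BCMA, had reads in 9 tumours, at most 0.138 TPM under anti-PD-1, and was at 1.44 TPM in IgG2a replicate 7 but listed at 0 in replicate 3. Derl3, of the degradation pathway of the endoplasmic reticulum, ranged from 0 to 0.502 TPM under anti-PD-1 (median 0.207) and from 0.0608 to 0.979 TPM under IgG2a (median 0.212). Irf4, the factor that starts the plasma cell programme, ranged from 0.199 to 0.713 TPM under anti-PD-1 (median 0.324) and was at 3.36 TPM in IgG2a replicate 7, with 0.352 TPM in replicate 3 (IgG2a median 0.474). So Jchain and Mzb1 were high in both tumours, and Irf4, Tnfrsf17 and Derl3 were highest in replicate 7 without being high in replicate 3.

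Prdm1, Sdc1 and Fkbp11 made up the other kind. Prdm1, which encodes BLIMP-1, ranged from 2.45 to 7.69 TPM under anti-PD-1 (median 4.98) and from 2.56 to 11.3 TPM under IgG2a (median 7.11), and IgG2a replicates 3 and 7 held 2 of the 3 lowest values. Sdc1 ranged from 92.1 to 209 TPM under anti-PD-1 (median 167) and from 79.7 to 268 TPM under IgG2a (median 197). Both were highest in IgG2a replicate 4, the tumour with the fewest immunoglobulin reads. Fkbp11 ranged from 72.4 to 121 TPM under anti-PD-1 (median 84.8) and from 25.0 to 97.1 TPM under IgG2a (median 68.8), and the groups overlapped.

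Immunoglobulin reads came mostly from 2 tumours. The 10 constant genes together took 802 RPM (reads scaled to the library total) in IgG2a replicate 7 and 237 in IgG2a replicate 3, against 2.54 to 38.8 in the other 14 tumours. These 2 tumours held 61.7 and 23.1% of all immunoglobulin constant reads of the study, 84.9% together. Under anti-PD-1 the values ran from 6.09 to 23.0 RPM (median 10.1), and among the other 6 IgG2a tumours from 2.54 to 38.8 (median 11.7). Outside the 2 tumours, the anti-PD-1 values lay within the range of the IgG2a values.

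Among the unswitched chains, Ighm ranged from 3.62 to 16.3 TPM under anti-PD-1 (median 6.04) and from 2.15 to 456 TPM under IgG2a (median 10.9). It was at 100 TPM in IgG2a replicate 3, and both tumours were far above the other 14 (2.15 to 25.5 TPM). Ighd, co-expressed with Ighm on naive B cells, ranged from 0 to 0.438 TPM under anti-PD-1 (median 0.0909) and reached 1.54 TPM in IgG2a replicate 7 (IgG2a median 0.179). Igkc ranged from 2.40 to 13.4 TPM under anti-PD-1 (median 6.4) and from 0.596 to 1116 TPM under IgG2a (median 9.63), with 316 TPM in replicate 3 and at most 33.9 TPM in the other 14. The ratio of Igkc to Ighm in TPM was 3.16 in replicate 3 and 2.45 in replicate 7 and lay between 0.277 and 1.86 in the other 14 tumours. Light chain transcripts were therefore higher relative to Ighm in these 2 tumours than in any other.

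The switched chains split the same 2 tumours. Ighg2b was at 27.7 TPM in IgG2a replicate 7 and 1.89 TPM in replicate 3, and ranged from 0.0192 to 1.31 TPM under anti-PD-1 (median 0.296, IgG2a median 0.593). Ighg1 was at 5.74 TPM in replicate 7 and 1.21 TPM in replicate 3, and ranged from 0 to 0.890 TPM under anti-PD-1 (median 0.171, IgG2a median 0.115). Ighg3 was at 17.0 TPM in replicate 3 but 0.128 TPM in replicate 7, and reached 1.01 TPM under anti-PD-1 (median 0.0204, IgG2a median 0.124). Ighg3 and Ighg2b were thus each high in a different tumour. Igha was at 1.96 TPM in replicate 3 and had no read in replicate 7, and reached 0.407 TPM under anti-PD-1 (median 0.0528, IgG2a median 0.0791). Ighg2c, the C57BL/6 counterpart of Ighg2a, was highest outside both, at 1.16 TPM in IgG2a replicate 8 and 1.12 TPM in anti-PD-1 replicate 1 (medians 0.0662 and 0.214 TPM). For the lambda chains, Iglc2 was at 13.5 and 9.07 TPM in replicates 7 and 3 and at most 0.849 TPM elsewhere (medians 0.334 under anti-PD-1 and 0.189 under IgG2a). Iglc1 was at 1.47 and 3.39 TPM there and at most 0.773 TPM elsewhere, and it had reads in 8 of the 16 tumours.

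Some of these genes resemble each other, which bears on how reads were divided among them. The secreted coding sequences of Ighg2b and Ighg2c were 86.4% identical and shared 11.3% of the 31-base words of Ighg2b, and the other pairs of IgG genes were 76.4 to 80.2% identical. Iglc2 was 96.5% identical to Iglc3, which is no member and had 122 reads over the 16 tumours, so the split between these 2 is uncertain. Ighe, the IgE chain, had 16 reads in 4 tumours. Libraries were not directional, so reads antisense to a gene cannot be told from its own.

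Isotype use was given as the share of each heavy chain gene in the reads of all 7, which numbered 162 to 34241 per tumour. Ighm took most of them in every tumour, from 69.5 to 100%. The largest shares of IgG (4 genes together) were in anti-PD-1 tumours: 23.9% in replicate 1 (95% Wilson interval 21.5 to 26.4), 16.03% in replicate 3 (12.8 to 19.9) and 13.9% in replicate 4 (10.6 to 18). These 3 tumours had 1169, 418 and 338 heavy chain reads, where the median of the 16 was 647. IgG2a replicate 3 followed with 11.8% (11.3 to 12.4), of which Ighg3 alone made 9.73%, and IgG2a replicate 7 had 4.82% (4.60 to 5.06). No IgG read was found among 162 reads in IgG2a replicate 4, which allows a share of up to 1.85% (3 reads of the total, against an upper Wilson limit of 2.32%), nor among 316 in replicate 5, which allows up to 0.949% (upper Wilson limit 1.201%). These intervals and limits cover counting error only, and they may be too narrow: among whole values from 1 to 20 reads, 61.8 to 69.8% were even, and whether both mates of a pair were counted was not tested.

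**Figure D2:**
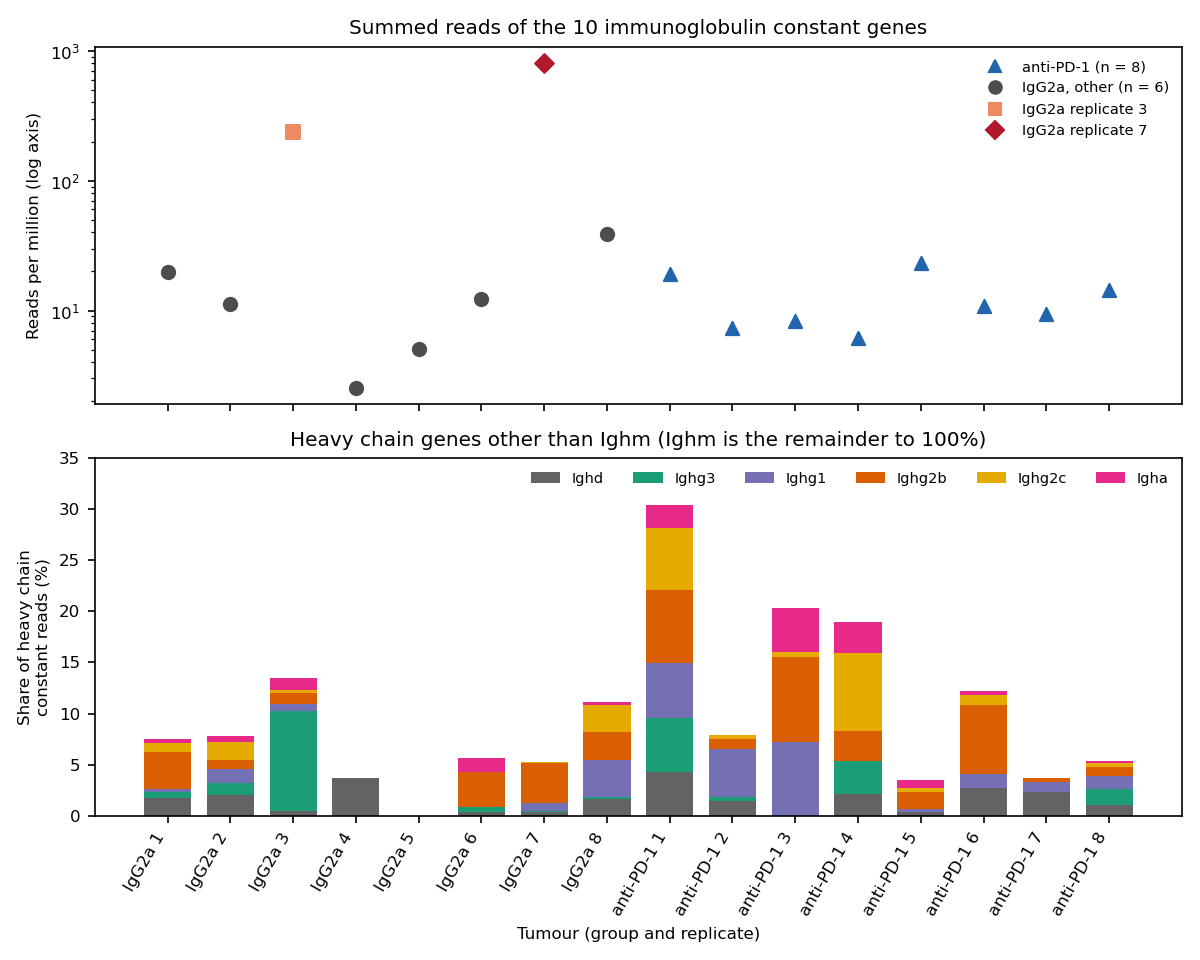
Upper panel, RPM of the 10 immunoglobulin constant genes summed in each tumour, on a log axis; lower panel, the share of each heavy chain constant gene other than Ighm in all heavy chain constant reads of that tumour, in percent, stacked. IgG2a replicates 7 and 3 stand at 802 and 237 RPM, while the tallest stacks are in anti-PD-1 replicates 1, 3 and 4 and the Ighg3 share of 9.73% is in IgG2a replicate 3.

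None of the 8 shares passed a threshold of 0.05 between treatments when all 12870 ways of assigning the tumours were compared (exact permutation, two-sided). Mean Ighm shares were 87.2 ± 9.68% (SD) in the 8 anti-PD-1 tumours and 93.2 ± 4.22% in the 8 controls (exact permutation p = 0.132, adjusted over 8 shares 0.423). In the same order, the Ighg1 share averaged 2.65 ± 2.69% and 0.859 ± 1.2% (exact permutation p = 0.0993, adjusted 0.423). The other switched chains also had broad spreads. Ighg2b took 3.63 ± 3.26% and 1.96 ± 1.64% (exact permutation p = 0.211), Ighg2c 2.06 ± 3.02% and 0.699 ± 0.988% (p = 0.321), and Igha 1.36 ± 1.63% and 0.475 ± 0.53% (p = 0.178). Ighg3 took 1.32 ± 1.98% and 1.53 ± 3.34% (exact permutation p = 0.872), and without IgG2a replicate 3 the sign of that difference turned, to 0.97 percentage points higher under anti-PD-1. Ighd took 1.77 ± 1.38% and 1.28 ± 1.23% (exact permutation p = 0.459). Lambda chains made 7.40 ± 6.91% and 6.63 ± 6.21% of light chain reads (exact permutation p = 0.817), with 0 to 18.2% in single tumours. So 5 of the 6 heavy chain genes other than Ighm had a higher mean share under anti-PD-1, each within the spread of the tumours. The heavy chain shares of a tumour are parts of 1 total, so these differences and that of Ighm are not independent of each other. Single tumours moved these differences: without anti-PD-1 replicate 1 the Ighm difference went from -5.99 to -3.47 percentage points and that of Ighd from 0.49 to 0.14. Without anti-PD-1 replicate 3 that of Ighg1 went from 1.79 to 1.14, that of Ighg2b from 1.67 to 0.99 and that of Igha from 0.88 to 0.46. Without anti-PD-1 replicate 4 that of Ighg2c went from 1.36 to 0.56. Other tumours moved them the other way. The Ighm difference was -7.31 without anti-PD-1 replicate 5, and that of Ighg1 2.17 without IgG2a replicate 8 (exact permutation p = 0.0423, adjusted 0.338). Those of Ighg2b and Ighg2c were 2.14 and 1.66 without anti-PD-1 replicate 7. The differences of Ighm, Ighd, Ighg1, Ighg2b, Ighg2c and Igha kept their sign whichever single tumour was left out.

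The 2 forms of Ighm, whose tails are printed above, were then compared within each tumour. The secreted form held 91.2% of Ighm reads in IgG2a replicate 3, 90.1% in replicate 7 and 87.1% in replicate 6. In the other tumours it held 39.7 to 69.8%, except anti-PD-1 replicate 4 with 10.4% (95% Wilson interval 7.47 to 14.8). A high secreted share was therefore seen in 3 IgG2a tumours. Of these, replicate 6 (95% Wilson interval 84.0 to 89.6) had an Ighm level of 8.70 TPM, near the median of the 16 tumours (8.16 TPM). In TPM, the secreted form was at 417 in replicate 7 and 92.6 in replicate 3 against 0.432 to 15.0 in the other 14 tumours. The membrane form was at 39.4 TPM in replicate 7, and at 7.65 TPM in replicate 3 it was within the range of the other 14 (0.986 to 10.5 TPM). IgG2a replicate 3 was thus outside the range of the 14 tumours for the secreted form and inside it for the membrane form. Over the 16 tumours the median secreted share was 55.4% under anti-PD-1 and 56.3% under IgG2a. The forms share most of their bases, so this split is an estimate of the authors' quantification.

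Reads of the switched chains were mostly on secreted transcripts. Ighg1, Ighg2b, Ighg2c and Igha together had 2800 reads on secreted and 88.0 on membrane transcripts, so 3.05% were membrane, against 15.9% of all Ighm reads. Both pooled shares rest on IgG2a replicates 3 and 7: without them the membrane share was 7.85% (66.9 reads) for the switched chains and 43.9% for Ighm. In the 14 single tumours with reads of the switched chains, their membrane share ran from 0 to 43.9%, with a median of 2.05%. Of Ighd, all 374 reads were on the transcript Ighd-202 and none on Ighd-201, and neither was classed as secreted or membrane here. Ighg3 is left out of this count because only its secreted transcript was used here.

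**Figure D3:**
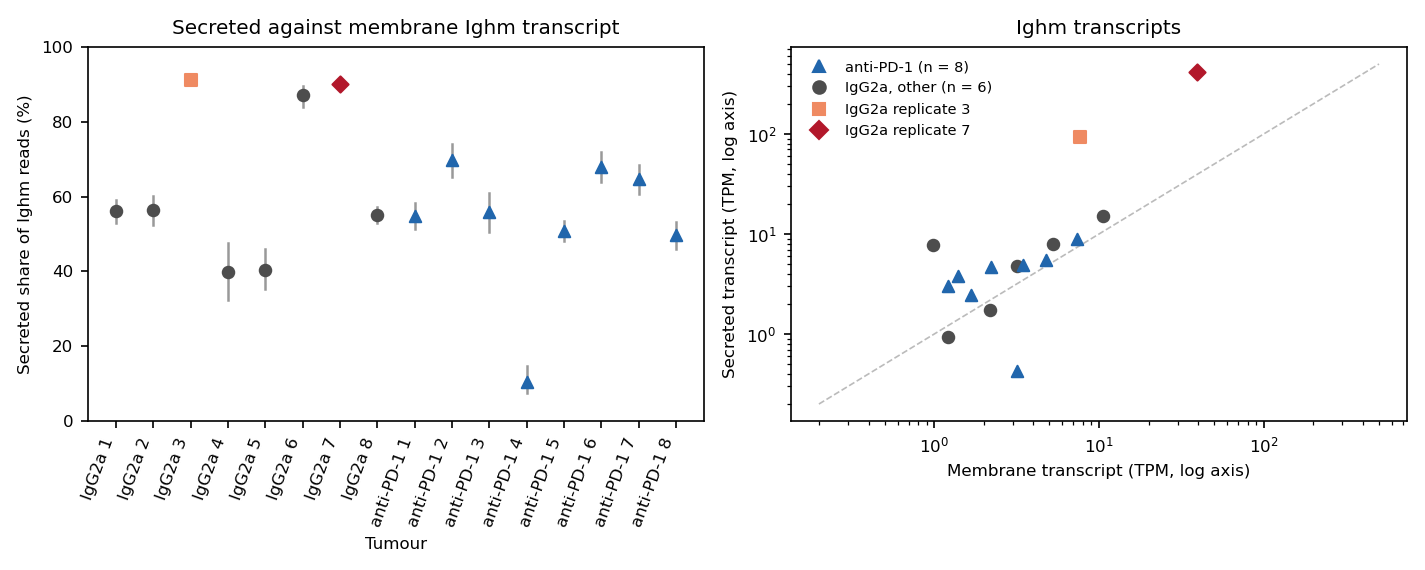
Left, secreted transcript as a share of all Ighm reads in each tumour, in percent, with 95% Wilson intervals; right, TPM of the secreted against the membrane transcript on log axes, where the dashed line marks equal levels. IgG2a replicates 3, 6 and 7 lie at 87.1 to 91.2%, anti-PD-1 replicate 4 at 10.4%, and on the right IgG2a replicate 3 lies above the others of like membrane level.

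No member passed the test of anti-PD-1 against IgG2a. Of the 37, 27 had enough reads to be tested (16 B cell, 7 plasma cell and 4 immunoglobulin genes). Those left untested were Ms4a1, Cr2, Fcmr, Tnfrsf17, Ighg1, Ighg2c, Ighg3, Igha, Iglc1 and Iglc2. By edgeR's quasi-likelihood test with Benjamini-Hochberg adjustment, 0 of 27 members had an adjusted p under 0.05, where 0% of the 16154 genes tested did, and the smallest adjusted p of a member was 0.434. At an unadjusted p under 0.05 there were 4 members lower and 1 higher under anti-PD-1, where 7.90% of all genes were lower and 3.47% higher at that limit. DESeq2 called 1 of the 16154 genes (0.00619%), which was no member. For no member did the CPM of the groups fail to overlap (0.0124% of all genes tested).

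The largest differences were in antibody genes. The log2 fold change of anti-PD-1 over IgG2a was -4.79 ± 1.36 (SE) for Igkc (edgeR unadjusted p = 0.0026, adjusted p = 0.434), -3.32 ± 0.99 for Ighm, -4.29 ± 1.32 for Jchain and -3.10 ± 1.33 for Ighg2b. Without IgG2a replicates 3 and 7 the same estimates were -0.39 for Igkc, -0.30 for Ighm, -0.41 for Jchain and 0.26 for Ighg2b. IgG2a replicate 7 moved them more than replicate 3: leaving out replicate 7 alone gave -3.13 for Igkc, -1.66 for Ighm, -3.30 for Jchain and -0.48 for Ighg2b. Of the 8 anti-PD-1 tumours, Igkc CPM was above the IgG2a median in 2, Ighm and Jchain in 1, and Ighg2b in 3. Ighd, the fourth constant gene tested, had -1.40 ± 0.92, and 0.07 without both tumours.

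Fkbp11 was the member with the highest estimate relative to its error, at 0.59 ± 0.27 (SE, edgeR unadjusted p = 0.042, adjusted p = 0.434). Its mean CPM (reads scaled to the TMM library size) was 43.0 ± 18.1 with anti-PD-1 and 28.5 ± 11.5 in controls (SD, n = 8 each). All 8 anti-PD-1 tumours were above the IgG2a median. The estimate was 0.63 without IgG2a replicates 3 and 7, and 0.37 without anti-PD-1 replicate 6, the tumour where Fkbp11 was highest and fewest transcripts were detected. Other plasma cell members were lower but for Sdc1: Irf4 at -1.07 ± 0.55, Mzb1 at -1.53 ± 0.86, Derl3 at -0.48 ± 0.68, Prdm1 at -0.13 ± 0.22 and Sdc1 at 0.05 ± 0.17. Without IgG2a replicates 3 and 7, Irf4 was at -0.12, Mzb1 at 0.04, Derl3 at 0.29, Prdm1 at -0.36 and Sdc1 at -0.13. Irf4, Mzb1 and Derl3 thus had higher estimates, and Prdm1 and Sdc1 lower ones, without the 2 tumours.

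Of the 16 B cell members tested, 11 had lower and 5 higher estimates. Their log2 fold changes had a median of -0.19, against -0.05 for all genes tested. Blnk had -1.24 ± 0.70, Bank1 -0.88 ± 0.49, Cd79a -0.72 ± 0.44 and Cd22 -0.65 ± 0.43. Without IgG2a replicates 3 and 7 they were at 0.55, -0.07, 0.03 and 0.02, and 13 of the 16 B cell members were then higher. Pax5 went the other way, from -0.34 ± 0.32 to -0.62. Cd79b (0.21 ± 0.55), Fcer2a (0.24 ± 0.72), Tnfrsf13c (0.42 ± 0.39) and Pou2af1 (-0.02 ± 0.42) had estimates smaller than or close to their error. The remaining 7 lay between -0.30 (Btk) and 0.40 (Blk).

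Over the 27 members tested, 20 (74.1%) had lower estimates under anti-PD-1, where 56.9% of all genes tested did. Without IgG2a replicates 3 and 7 this became 9 lower and 18 higher, where 46.3% of all genes were lower, and the members' median log2 fold change moved from -0.30 to 0.20. With anti-PD-1 replicate 6 left out as well it was 9 of 26 lower (46.7% of all genes), and without IgG2a replicate 7 alone 15 of 27 (50.5% of all genes). With quality weights in limma-voom, which give less weight to libraries that stand apart, 12 of 27 were lower (48.7% of all genes). By TPM, IgG2a replicate 7 was the highest of 16 tumours for 17 of the 27 members tested, where it was the highest for 28.7% of all genes tested. Over all 37 members, tested or not, it was the highest for 22 (11 B cell, 5 plasma cell and 6 immunoglobulin genes). Of the members tested it was the lowest for Pax5, Fkbp11 and Sdc1, where it was the lowest for 20.8% of all genes tested. IgG2a replicate 3 was the highest for Ighg3, Igha and Iglc1, which were not tested. It was the highest for no tested member, where it was the highest for 4.13% of all genes tested. Of the members tested it had the lowest TPM for Cd72, where it had the lowest for 5.71% of all genes tested.

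**Figure D4:**
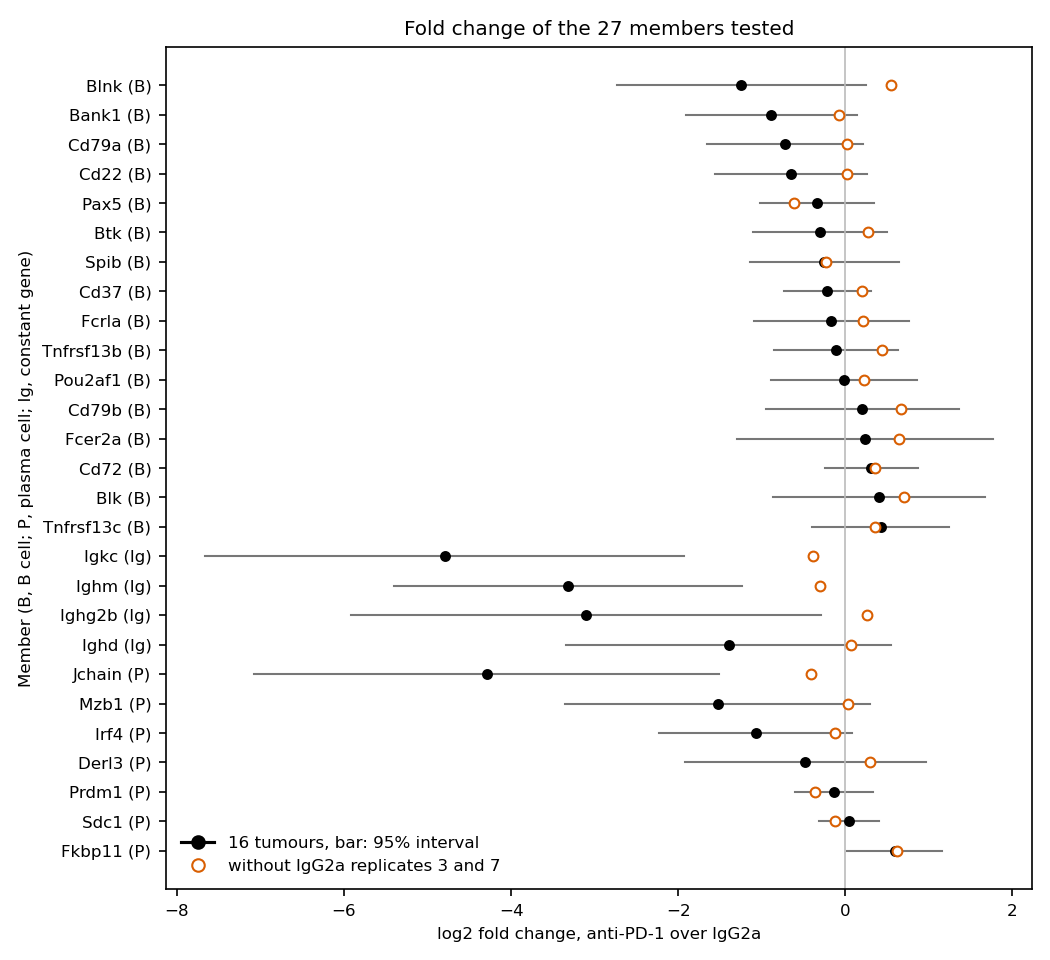
Log2 fold change of anti-PD-1 over IgG2a for the 27 members tested, with 95% intervals from all 16 tumours (filled points, bars) and the estimate without IgG2a replicates 3 and 7 (open points). The filled points of Igkc, Jchain, Ighm and Ighg2b lie between -4.79 and -3.10 and their open points between -0.41 and 0.26.

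Other genes of the lineage were read from 6 lists of 47 genes, of which 42 were tested and none passed (edgeR, smallest adjusted p 0.434). Of these, 13 had higher and 29 lower estimates, with 1 higher and 4 lower at an unadjusted p under 0.05. The median of the 42 log2 fold changes was -0.12. Of all genes tested, 56.9% were lower, and 3.47% were higher and 7.90% lower at that limit. Without IgG2a replicates 3 and 7, 29 of 43 list genes tested were higher and 14 lower, where 46.3% of all genes were lower, with 3 higher and 1 lower at an unadjusted p under 0.05 and none passing. Among 8 transcription factors of the B lineage, all 8 had lower estimates, but 6 of the 8 had higher ones without IgG2a replicates 3 and 7. With all tumours 2 were under an unadjusted p of 0.05: Ebf1, which specifies B cells and also acts in adipocytes, at -2.42 ± 0.99, and Foxo1, a forkhead factor of many tissues, at -1.76 ± 0.72. Without the 2 tumours Ebf1 was at 0.74 ± 0.37 and Foxo1 at 0.18 ± 0.35. Ebf1 was at 23.8 TPM in IgG2a replicate 7 against 0.180 to 1.88 TPM in the other 14 tumours, the tumour with the adipocyte marker sum of 13271 TPM, and the part of adipocytes in it was not tested. Xbp1, the factor behind the secretory expansion of plasma cells, was at 145 TPM there against 57.3 to 100 TPM. Foxo1 was at 9.72 TPM there and 1.77 TPM in IgG2a replicate 3, against 0.133 to 1.37 TPM.

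Of 10 genes of antigen receptor signalling, 4 were higher and 6 lower (7 and 3 without IgG2a replicates 3 and 7), none under an unadjusted p of 0.05. Of 4 survival ligands and helper signals tested, 2 were higher and 2 lower, and all 4 were higher without these tumours. Tnfsf13b, which encodes BAFF, and Tnfsf13, which encodes APRIL, had -0.32 ± 0.40 and -0.34 ± 0.34, and 0.13 and 0.02 without the 2 tumours. All 6 germinal centre and follicle genes tested had lower estimates, and 5 of 7 did without the 2 tumours. Cxcl13, the chemokine that draws B cells into follicles, was at 31.8 and 4.01 TPM in IgG2a replicates 7 and 3 and at most 1.55 TPM elsewhere (-2.68 ± 1.16, and 0.74 ± 0.73 without them). Of 8 genes of the secretory machinery, 4 were higher and 4 lower, with Creld2 (0.41 ± 0.19) and Sel1l (-0.33 ± 0.14) under an unadjusted p of 0.05. Without the 2 tumours 4 were again higher and 4 lower, and none passed. The 3 higher and 1 lower list genes then at that unadjusted limit were all in this list. They were Sec11c (0.58 ± 0.22), Hsp90b1 (0.21 ± 0.09), Creld2 (0.46 ± 0.20) and Sel1l (-0.23 ± 0.11). Of 6 receptors for immunoglobulin tested, 3 were higher and 3 lower, and 6 were higher without the 2 tumours. Fcgrt, which encodes the neonatal Fc receptor that recycles IgG, was at 299 TPM in IgG2a replicate 7 against 27.6 to 48.7 TPM in the other 14 tumours (-0.90 ± 0.48, and 0.25 ± 0.16 without the 2 tumours).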

How the data were processed

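Poly(A) RNA of whole tumours (RNA integrity above 5, non-directional libraries, per the labels' protocols) had been quantified per transcript. Per the file headers, the deposited values are estimated counts, not whole for 25.4 to 38.6% of transcripts, and TPM scaled per tumour. GRCm38, edgeR and limma are named in the submitters' processing notes, and the quantifier is not given in the sources used here.

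Transcripts were matched by identifier to GENCODE M21 of GRCm38 (114200 of 115088, in 47311 genes, with 0.167 to 0.217% of reads unmatched). For each gene the estimated counts were added up and rounded. After filterByExpr (minimum count 10, total 15) they were scaled by TMM and tested with edgeR 4.0.16 (robust quasi-likelihood, R 4.3.3) over all 16154 genes with Benjamini-Hochberg adjustment and a threshold of 0.05. CPM use the TMM factors. On simulated counts of these 16154 genes the test recovered 50% of 48 genes changed 2-fold and 75% of 48 changed 4-fold. The changed genes were drawn at random from all genes tested, so recovery for scarce or variable genes such as many members was not tested. Shares were tested by exact permutation. Form-specific tails are coding bases not shared by both forms of a gene. Alternatives included DESeq2 1.42.0, which replaces outlying counts, and limma-voom 3.58.1. Groups come from the labels, where each tumour has its own animal number.

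The members and gene lists were chosen with earlier results of these data known. Values were given for a set list of members, and for the 3 others of smallest p (Fkbp11, Bank1 and Blnk).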

Additional observations from a re-analysis of the deposited data

Results flagged for a closer look

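In 13 of 92 groups of 8 tumours, 1 tumour lay far from the other 7 by the 95% limit of Dixon's ratio. Chance alone flags about 1 in 20 groups where values are normally distributed, and the groups share tumours. The rate for percent shares, and for log2 CPM of tumours without reads, was not tested. IgG2a replicate 7 was the far tumour for Cd22 (log2 CPM 4.61, other 7 tumours 1.26 to 2.82), Cd37 (6.03, others 4.08 to 4.72), Btk (5.34, others 2.34 to 3.57), Blnk (6.08, others 0.42 to 3.02) and Irf4 (3.77, others -0.91 to 1.2). IgG2a replicate 3 was the far tumour for Ighg3 (log2 CPM 3.92, others at most -2.82) and Igha (0.85, others at most -2.61), and for the Ighg3 share of heavy chain reads (9.73%, others at most 1.15%). IgG2a replicate 8 had an Ighg1 share of 3.56%, the others at most 1.44%.

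Under anti-PD-1, replicate 6 was far above the others for Ms4a1 (log2 CPM -0.77, others -3.03 to -2.05) and Fkbp11 (6.42, others 4.87 to 5.59). Replicate 3 had no read of Fcer2a, which the prior count places at a log2 CPM of -5.09 (others -2.53 to -1.10). In replicate 4 the secreted share of Ighm was 10.4%, against 49.8 to 69.8% in the other 7.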

How the results depend on the processing

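No paired analysis was possible because the labels give no replicate numbers. No member passed under any of 27 settings, nor any isotype share under 18. DESeq2 called 1 gene. With quality weights 12 members had lower and 15 higher estimates. Without IgG2a replicates 3 and 7 (chosen after seeing the data) these were 9 and 18, and with anti-PD-1 replicate 6 left out as well 9 and 17. At a minimum count of 50 fewer members were tested, with 13 lower and 4 higher, where 7334 of 13322 genes were lower. Over all settings, members with lower estimates numbered 9 to 29, against 20 of 27 in the fit given above. Members at an unadjusted p under 0.05 numbered 3 by DESeq2, 1 by limma-voom and 3 with quality weights. They numbered 8 with no filter, 3 at a minimum count of 50, and 3 without either set of tumours. Of all genes, 1599 of 16154 were at that limit by DESeq2, 1011 of 16154 by limma-voom and 3421 of 16154 with quality weights. With no filter, where more members entered, it was 4293 of 27933, and 1452 of 13322 at a minimum count of 50. Without IgG2a replicates 3 and 7 it was 2636 of 16457, and 2580 of 16352 with anti-PD-1 replicate 6 left out as well. Leaving out each tumour in turn gave 15 to 22 members lower, 7 to 12 higher and 3 to 7 at p under 0.05. Of all genes, 1162 of 16293 (without IgG2a replicate 7) to 2607 of 16326 (without IgG2a replicate 3) were then at that limit.

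Some log2 fold changes turned sign: 13 of 27 members without IgG2a replicates 3 and 7, 12 of 26 with anti-PD-1 replicate 6 left out as well and 10 of 27 with quality weights. Among the members named with their values, those without IgG2a replicates 3 and 7 were Cd79a 0.027, Cd22 0.016, Pou2af1 0.23, Mzb1 0.036, Derl3 0.29, Sdc1 -0.13, Ighd 0.070, Ighg2b 0.26 and Blnk 0.55. With anti-PD-1 replicate 6 left out as well they were Cd22 0.10, Pou2af1 0.39, Mzb1 0.23, Derl3 0.48, Sdc1 -0.13, Ighg2b 0.12, Bank1 0.027 and Blnk 0.54, and the Ighg3 share difference was 1.10 points. With quality weights they were Pou2af1 0.42, Sdc1 -0.12, Ighd 0.31, Ighg2b 0.48, Bank1 0.19 and Blnk 0.53. DESeq2 gave Blnk 0.29, after replacing 1 outlying count. Pou2af1 was 0.0036 with upper quartile scaling and 0.010 with no filter. Leaving out single tumours gave ranges of -0.084 to 0.65 for Cd79b, -0.23 to 0.15 for Pou2af1, -0.85 to 0.12 for Derl3, -0.061 to 0.12 for Sdc1 and -1.43 to 0.30 for Blnk, and of -0.77 to 0.97 points for the Ighg3 and -0.77 to 2.42 points for the lambda share difference. Fewer samples enter where tumours are left out, and otherwise the cause was not tested.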
